A study of Mus musculus with 9 samples.

Results

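AP-1 transcription factor subunits were followed here as 9 genes of the C2C12 transcriptome, the Fos family (Fos, Fosb, Fosl1, Fosl2), the Jun family (Jun, Junb, Jund), and Atf3 and Maff, which are related bZIP genes. The members were taken as the rows of the FPKM matrix whose mouse Ensembl identifier carries one of these symbols, 9 of 54307 genes, and all 9 were among the 13674 genes that passed the filter on low values, an FPKM (fragments scaled to transcript length and to the library's mapped total) of at least 1 in at least 3 libraries. C2C12 is a mouse myoblast line, and the 9 libraries were 3 of untreated control cells (NC group), 3 of cells given 25 mmol/L glucose (H group) and 3 of cells given the same glucose with 200 nmol/L liraglutide (HL group), all for 48 h. Liraglutide is a long-acting agonist of the GLP-1 receptor. The study describes its experiments in general as independently repeated, but the sources used here do not tie each library to a culture, nor do they give the glucose level of NC medium. If libraries of 1 group shared a culture, the p-values measure only their spread, which may be technical. Every library came from the same clonal line, and no sample with an osmotic control for the glucose was analysed here.

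AP-1 is not 1 protein but a set of dimers. Fos and Jun proteins carry a basic region that contacts DNA and a leucine zipper that holds the partners together. Fos proteins need a Jun partner, whereas Jun proteins can also pair with each other, and Atf3 and the small Maf proteins join through the same kind of zipper. Fos, Fosb, Jun, Junb and Atf3 are known as immediate early genes, whose transcription starts within minutes of a stimulus without new protein synthesis and whose mRNAs are short-lived. In myoblasts, Jun and Fos are known to oppose the myogenic factor MyoD and to accompany proliferation rather than fusion.

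Depth was estimated from the low FPKM of single-transcript genes, which were whole multiples of the value of 1 read, as 17.1 to 22.6 M reads per library. The median SD of log2 values between replicates was 0.171 in H, above 0.0723 in NC and 0.0865 in HL. Among the H libraries, replicate 1 was the highest for 6 of the 9 members and replicate 2 the lowest for 6. Mitochondrially encoded transcripts ranged in their share of all FPKM over 6.48% to 7.28% (NC), 7.24% to 9.47% (H) and 9.19% to 11.4% (HL), and their part in the results below was not tested. Of 7 myoblast markers, summed at 2215 to 3209 FPKM in the 9 libraries, only Pax7, a satellite cell factor, stayed under 1 FPKM throughout. Vim made up most of this sum, with mean FPKM of 2221 in NC, 1906 in H and 2582 in HL. The group means of Myod1, Myf5 and Cdh15 ran from 7.32 to 23.5 FPKM, so the size of the sum says little on these 3 genes. Of 8 white blood cell markers, with summed FPKM of 5.39 to 6.64 for NC, 106 to 169 for H and 19.4 to 20.4 for HL, 3 were at 0 in every NC library, 2 in every H library and 3 in every HL library. Most of that sum was Csf1r, at 0.451 ± 0.205 FPKM in NC, 125 ± 29.8 in H and 0.262 ± 0.0177 in HL (SD, n = 3), and Cd68, at 4.78 ± 0.704, 17.6 ± 3.69 and 19.0 ± 0.631. Ptprc, Tyrobp, Fcer1g and Lyz2 reached at most 0.0219, 0, 0.118 and 0.878 FPKM in any library. Spi1 was at 0 FPKM in every NC and HL library and at 0.177 to 0.327 in the H libraries. Adgre1 was at 0 in NC and HL and at 0 to 0.0594 in H.

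The first comparison asks what high glucose does to the AP-1 genes. Fos, Fosb and Atf3 were up-regulated in the H group, and the other 6 members were 1.42 to 2.01 times their NC means and stayed under the fold threshold. A call needs a Benjamini-Hochberg adjusted p under 0.05 in limma and an absolute log2 fold change over 1 on the log2(FPKM + 0.1) scale, and 3 of 9 members were called higher and 0 lower, where 10.3% of all tested genes were called higher and 5.75% lower. By the adjusted p alone all 9 members were higher, against 27.1% of all genes. In all 9 the H libraries lay above the NC libraries without overlap, which held for 29.7% of all genes in this direction and for 35.7% in the other. Since RNA was taken from whole cultures, a change in the fraction of cells that express a gene and a change in RNA per cell cannot be told apart.

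**Figure D1:**
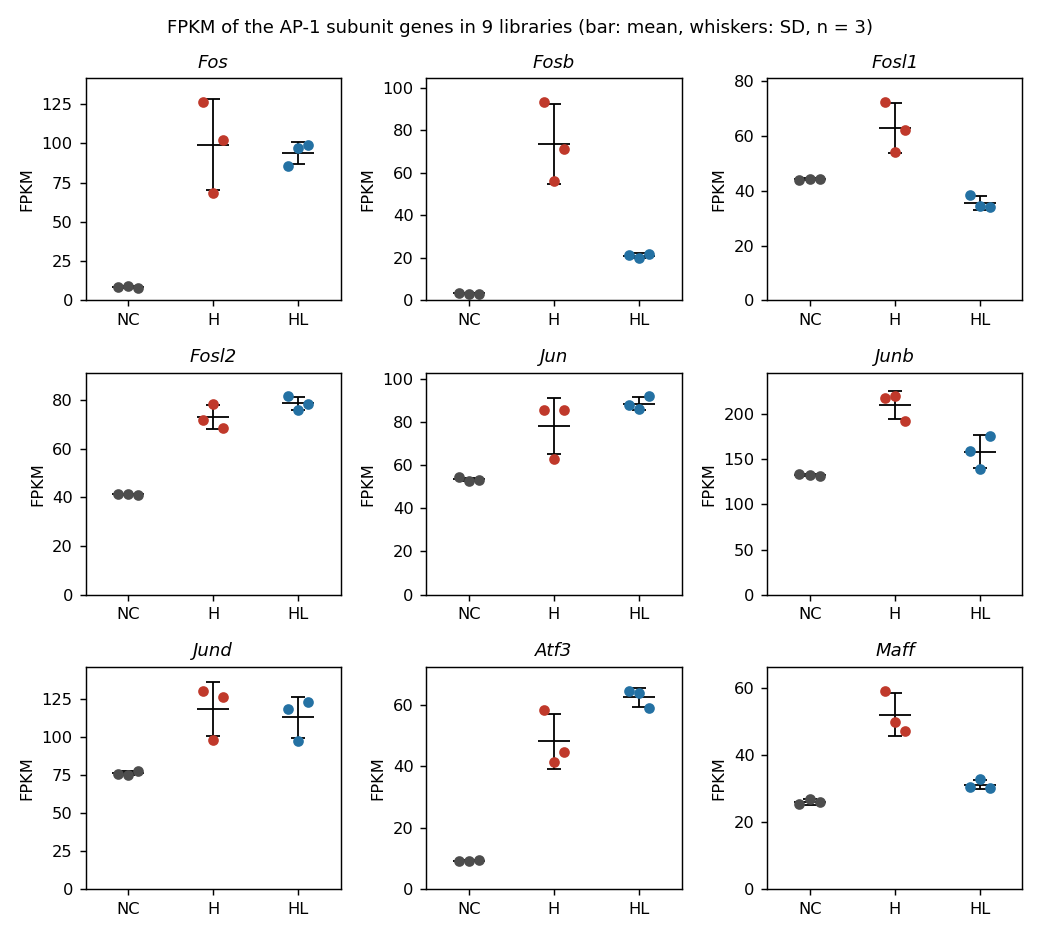
FPKM of the 9 AP-1 subunit genes in each library, 1 panel per gene, with groups on the x axis, FPKM from 0 on the y axis, points for libraries, bars for means and whiskers for the SD (n = 3). Fos and Atf3 stay high in HL, Fosb falls to 21.1 FPKM, and Fosl1 and Maff lie at 35.6 and 31.2 FPKM in HL.

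Fosb, whose protein exists in a full-length form and a short form that lacks the activating C-terminus, had the largest change of the 9. It was at 3.62, 3.26 and 3.13 FPKM in the NC libraries, 93.2, 56.0 and 71.3 in the H libraries, and 21.2, 20.1 and 22.0 in the HL libraries. The 3 groups did not overlap, with NC lowest, HL in the middle and H highest. Compared with the NC group, Fosb rose in H by a log2 fold change of 4.39 (SE 0.156, limma adjusted p = 1.35e-07), and 123 of the 13674 tested genes had a larger one. FPKM is summed over the 7 annotated transcripts of the gene, so the forms are not separated. The study had also picked Fosb from these libraries, so its direction here is not independent evidence.

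Fos, the founding partner of Jun, was at 8.39, 9.41 and 8.10 FPKM in NC, 126, 68.5 and 102 in H, and 85.6, 96.9 and 99.3 in HL. Every H and HL library was far above every NC library, and the HL values lay inside the H range. The log2 fold change was 3.46 in H against NC (SE 0.186, limma adjusted p = 7.07e-07), with 233 genes higher on that scale. The H libraries spread widely, with an SD of 29.0 around a mean of 99.0 FPKM, and without any 1 library or under any other setting tried the log2 fold change stayed between 3.27 and 3.71.

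Atf3, a stress-induced member of the ATF/CREB family that pairs with Jun proteins, was at 9.15, 9.06 and 9.49 FPKM in NC, 58.5, 41.5 and 44.7 in H, and 64.7, 64.1 and 59.0 in HL. The H libraries were all above NC, and the HL libraries were all above H. The log2 fold change in H against NC was 2.36 (SE 0.113, limma adjusted p = 3.98e-07).

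The promoters of the 3 called genes are shown with that of Jun, which was not called and whose promoter holds a known site for AP-1 itself. Sequences are RefSeq windows on GRCm38.p6, running 5′ to 3′ on the gene's strand and ending before the first transcribed base, in lower case, with capitals for a match to TGACG, the core of the cAMP response element, or to TGACATCA, an AP-1/ATF variant known from the Jun promoter. The Fos stretch is chr12:85473640-85473889 on the plus strand, the Fosb stretch chr7:19310119-19310295 on the minus strand, the Atf3 stretch chr1:191183341-191183583 on the minus strand and the Jun stretch chr4:95052223-95052472 on the minus strand.
Fos promoter: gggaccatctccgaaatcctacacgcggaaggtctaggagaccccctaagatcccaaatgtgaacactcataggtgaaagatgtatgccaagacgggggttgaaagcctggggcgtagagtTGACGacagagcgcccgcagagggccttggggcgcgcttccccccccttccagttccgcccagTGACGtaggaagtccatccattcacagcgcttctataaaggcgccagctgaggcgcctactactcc
Fosb promoter: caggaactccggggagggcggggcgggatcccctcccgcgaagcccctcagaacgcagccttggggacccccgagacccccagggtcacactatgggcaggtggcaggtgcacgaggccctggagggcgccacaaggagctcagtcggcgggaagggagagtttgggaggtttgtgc
Atf3 promoter: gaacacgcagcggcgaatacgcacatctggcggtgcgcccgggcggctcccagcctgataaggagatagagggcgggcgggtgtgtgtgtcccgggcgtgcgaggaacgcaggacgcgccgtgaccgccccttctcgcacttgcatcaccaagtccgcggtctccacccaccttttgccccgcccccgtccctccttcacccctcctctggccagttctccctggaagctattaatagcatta
Jun promoter: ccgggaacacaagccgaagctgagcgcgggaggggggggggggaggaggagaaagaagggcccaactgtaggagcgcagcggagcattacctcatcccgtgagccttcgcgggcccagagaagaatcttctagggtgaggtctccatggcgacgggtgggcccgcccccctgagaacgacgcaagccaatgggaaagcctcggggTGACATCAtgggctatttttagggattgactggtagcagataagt
The Fos stretch holds TGACG at 129 and at 66 bases before the start, and the Jun stretch holds TGACATCA at 45 bases before it. The TGACG of Fosb, 60 bases before the start, and that of Atf3, 7 bases before it, lie past the end of the stretches printed here, which stop where another transcript of the gene is annotated.

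1 site of each member with a match follows, with its flanks and with capitals marking the match, which in Atf3 is TGACG read on the opposite strand. Not printed here are the other Fos TGACG, shown above, and 2 matches in another Maff window, a TGACATCA and a TGACG on the opposite strand.
Fos site: gttccgcccagTGACGtaggaagtcca
Atf3 site: taatagcattaCGTCAgcctgggattg
Fosb site: ggagttgcgggTGACGcaagcgcgggg
Junb site: cttcctgacagTGACGcgagccgcctc
Maff site: gctggggcggTGACGTCActgcatgact
Jun site: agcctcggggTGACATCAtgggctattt
Windows of 250 bases before to 50 after the start were found for 8 of 9 members, in 10 windows, and motifs were searched on both strands. TGACG, chosen after the sequences had been seen, was in the windows of 5 of the 8 members (Fos, Fosb, Atf3, Junb and Maff). By windows, it was in 6 of the 10 member windows and in 20.8% of all 32851 windows, and a gene with more windows has more room for a match. TGACGTCA, the whole palindrome that contains TGACG, was in 1 member, Maff, in 1 of the 10 member windows, and in 1.79% of all windows. TGACATCA was in 2 members, Jun and Maff, in 2 of the 10 member windows, and in 3.62% of all windows. The AP-1 consensus TGANTCA (7.81% of all windows), the CArG box bound by serum response factor (1.63%) and the tonicity element (4.96%) had no match in the member windows. Sites more than 250 bases before the start were not searched, so the lack of a match does not speak for the whole promoter of any member. These are matches of letters and say nothing on binding in these cells.

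Fosl2, a Fos family member that lacks the strong activation domain of Fos, was at 41.2, 41.3 and 41.1 FPKM in NC, 71.6, 78.4 and 68.6 in H, and 81.4, 76.1 and 78.3 in HL. Both treated groups were above NC in every library, and they overlapped each other. The log2 fold changes were 0.82 in H against NC (SE 0.0579, limma adjusted p = 3.24e-06) and 0.93 in HL against NC (adjusted p = 7.86e-06), both under the fold threshold.

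Fosl1, the other such member, was at 44.0, 44.5 and 44.5 FPKM in NC, 72.4, 54.3 and 62.3 in H, and 38.5, 34.4 and 34.0 in HL. The groups separated fully, with H highest and HL lowest, which made Fosl1 the one member whose HL libraries all lay under NC. Its log2 fold change was 0.50 in H against NC (limma adjusted p = 0.00173) and -0.32 in HL against NC (adjusted p = 0.0232, and 0.0556 to 0.0936 in the 7 of 19 alternatives where it passed 0.05).

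Among the Jun genes, which supply the partner that every Fos protein needs, Jun was at 54.3, 52.7 and 53.0 FPKM in NC, 85.3, 63.0 and 85.4 in H, and 87.6, 85.9 and 91.7 in HL. Junb was at 134, 133 and 131 FPKM in NC, 218, 219 and 192 in H, and 159, 140 and 176 in HL. Jund, the most steadily expressed of the Jun genes in many tissues, was at 75.5, 74.7 and 77.5 FPKM in NC, 130, 97.5 and 126 in H, and 118, 97.4 and 123 in HL. All 3 genes had every H library above NC, and Jun alone of the Jun genes had every HL library above every H library.

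The Jun family log2 fold changes in H against NC were close to each other, 0.53 for Jun (limma adjusted p = 0.00198), 0.66 for Junb (adjusted p = 0.00013) and 0.62 for Jund (adjusted p = 0.00139). Jun and Jund, each with 1 transcript, had an estimated 2203 to 5675 reads per library behind these values. Counting error alone then gives a CV of 1.75% for Jun and 2.11% for Jund in NC, about the replicate CV there (1.62% and 1.89%), and 1.46% and 1.70% in H, where the replicate CV was 16.6% and 15.1%. All 3 genes, and Fosl1, have exons that overlap a gene on the opposite strand, and since the sources used here do not say that counting used strand, reads of the overlap cannot be assigned. The overlapping genes were Junos for Jun (3.27 ± 0.675, 5.88 ± 0.696 and 3.18 ± 0.419 FPKM in NC, H and HL), Prdx2 for Junb (388 ± 1.34, 302 ± 33.7 and 296 ± 3.77) and Gm11175 for Jund (0.311 ± 0.539, 1.26 ± 1.11 and 0.85 ± 0.739). Ccdc85b, which overlaps Fosl1, was at 10.8 ± 0.225, 15.9 ± 0.386 and 10.04 ± 1.01 FPKM. Its log2 differences of 0.55 in H against NC and -0.66 in HL against H had the signs of those of Fosl1, as did those of Junos and Jun in H against NC (0.84 for Junos) but not in HL against H (-0.87 for Junos).

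Maff, a small Maf protein with a zipper but no activation domain of its own, was at 25.3, 26.8 and 25.9 FPKM in NC, 59.3, 49.8 and 47.3 in H, and 30.5, 32.7 and 30.3 in HL. H stood clear above the other 2 groups, and HL lay just above NC without overlap. Its log2 fold change in H against NC, 0.995 (SE 0.0836, limma adjusted p = 9.23e-06), was just under the threshold of 1, and it passed with NC replicate 2 left out (1.02), with H replicate 2 (1.02) or H replicate 3 left out (1.06), after centring on the median (1.01) and after rescaling to TPM (1.19).

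Rescaling to TPM, which gives every library the same total, moved the median of all genes in H against NC by 0.19, from -0.042 to 0.15. The calls then split into 1783 higher and 538 lower, where FPKM gave 1402 and 786, and 5 members were called higher, with Fosl2 (log2 fold change 1.01) and Maff joining Fos, Fosb and Atf3. The deposited FPKM had totals of 757000 to 765681 for NC, 649733 to 683362 for H and 698627 to 731929 for HL.

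The second comparison asks what liraglutide does on top of high glucose. Fosb was the only member down-regulated in HL compared with H, 1 of 9 where 5.83% of all tested genes were called lower, and 0 members were called higher (3.55% of all genes). Its mean was 21.1 ± 0.99 FPKM in HL and 73.5 ± 18.7 in H (SD, n = 3; log2 fold change -1.77, SE 0.156, limma adjusted p = 3.25e-05), which left it 6.32 times its NC mean. By the adjusted p alone, 4 members were lower (Fosb, Fosl1, Junb and Maff; 21.7% of all genes) and 1 was higher (Atf3; 26.7%). Those same 4 had every HL library under every H library (24.9% of all genes), and Jun and Atf3 had every HL library above (30.4%).

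**Figure D2:**
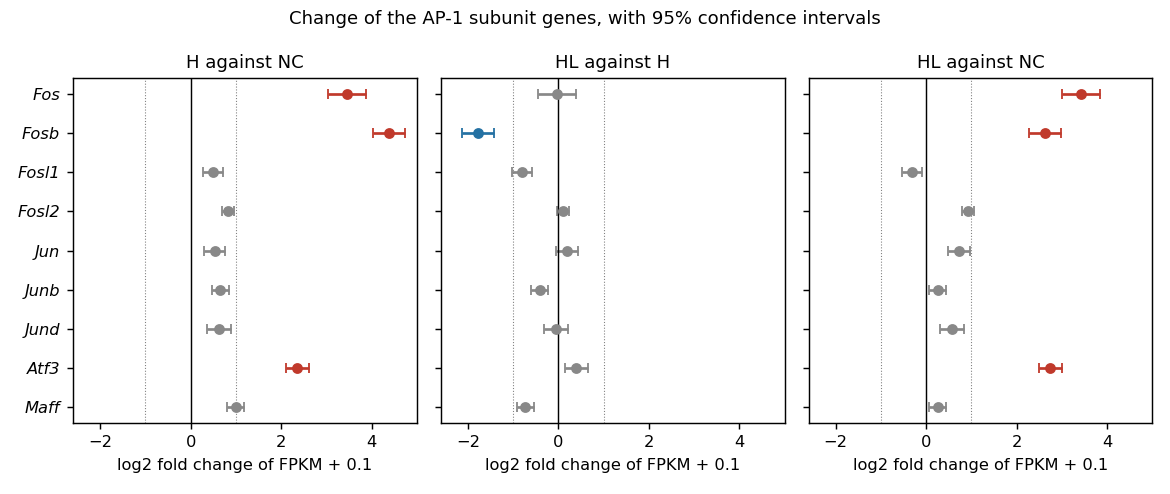
Log2 fold change of FPKM + 0.1 (x axis) of each AP-1 subunit gene (y axis) in H against NC, HL against H and HL against NC, with 95% confidence intervals from limma over 9 libraries, red for genes called higher, blue for lower and grey for not called, and dotted lines at the fold threshold. Fosb lies at -1.77 in HL against H, where the interval of Fos spans 0.

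For Fos the difference between HL and H was -0.035 on the log2 scale, with a 95% confidence interval of -0.46 to 0.38 (limma adjusted p = 0.89). Its sign turned when H replicate 1 (0.16), H replicate 3 (0.011) or HL replicate 1 (0.03) was left out. The interval for Jund was -0.33 to 0.20, for Jun -0.043 to 0.44 and for Fosl2 -0.021 to 0.24, so no difference over the 2-fold threshold remains within any of them. Fosl1 (-0.81, adjusted p = 0.000171), Maff (-0.73, adjusted p = 0.000131) and Junb (-0.41, adjusted p = 0.00362) were lower in HL by the limma adjusted p and short of the fold threshold. Atf3 was 0.39 higher (adjusted p = 0.0184), and that adjusted p passed 0.05 in 3 alternatives, without H replicate 3 (0.0628), HL replicate 1 (0.0595) or HL replicate 2 (0.0569). For Fosl2 the adjusted p of 0.145 became 0.0162 without H replicate 2.

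Compared with the NC group, Fos, Fosb and Atf3 were up-regulated in HL as well, 3 of 9 members where 6.3% of all tested genes were called higher, and 0 of 9 were called lower (2.41%). The log2 fold changes were 3.43 for Fos (limma adjusted p = 3.82e-06), 2.75 for Atf3 (adjusted p = 1.49e-06) and 2.63 for Fosb (adjusted p = 6.3e-06). Only 29 genes had a larger log2 fold change than Fos in HL against NC, 77 than Atf3 and 92 than Fosb. By the adjusted p alone, 8 members were higher (21.6% of all genes) and Fosl1 was lower (27.2%). In each of Fosl1, Junb and Maff that adjusted p was lost in 7 of 19 alternatives, with highest values of 0.0936 (rescaled to TPM), 0.12 (without HL replicate 3) and 0.0941 (without HL replicate 2). For Junb it was 0.0579 with the replicate block. The lowest limma adjusted p over the alternatives was 0.0014 for Fosl1, 0.00792 for Junb and 0.00203 for Maff. The adjusted p was lost for all 3 genes with any 1 NC library left out. The main fit pooled the spread of NC, H and HL. With only NC and HL fitted, the limma adjusted p was 0.00208 for Fosl1, 0.0289 for Junb and 0.00259 for Maff. The HL libraries of those 8 all lay above the NC libraries (29.5% of all genes), and those of Fosl1 all lay below (36.3%). This comparison shares its NC libraries with the first and its HL libraries with the second.

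Because FPKM is per length, the levels of the subunit genes can be set side by side. In NC the order of mean FPKM was Junb, Jund, Jun, Fosl1, Fosl2, Maff, Atf3, Fos and Fosb, and only Atf3 and Fos overlapped as neighbours. In H, Junb stood alone at the top at 210 ± 15.3 FPKM, and every neighbouring pair below it overlapped, from Jund at 118 ± 17.8 to Atf3 at 48.2 ± 9.03. In HL the order was Junb, Jund, Fos, Jun, Fosl2, Atf3, Fosl1, Maff and Fosb, and Jund overlapped Fos and Fos overlapped Jun.

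The 7 Fos and Jun family genes together summed to 359 ± 1.31 FPKM in NC, 714 ± 79.9 in H and 589 ± 37.0 in HL (SD, n = 3). The Fos family made up 27.1 ± 0.279% of that sum in NC, 43.0 ± 2.62% in H and 39.0 ± 2.04% in HL, and the Jun family the rest. Fos itself took 2.40 ± 0.195% in NC, 13.7 ± 2.63% in H and 16.0 ± 1.57% in HL. Fosb had 0.928 ± 0.0669%, 10.2 ± 1.46% and 3.58 ± 0.0573% in the same order, so that its share was largest in H. Fosl1 had its largest share in NC and its smallest in HL, at 12.3 ± 0.117%, 8.80 ± 0.278% and 6.07 ± 0.559%, and Junb was the largest single share in each group, at 36.9 ± 0.265%, 29.6 ± 4.16% and 26.8 ± 1.42%. These are shares of mRNA and say nothing on the amounts of protein or of dimers.

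**Figure D3:**
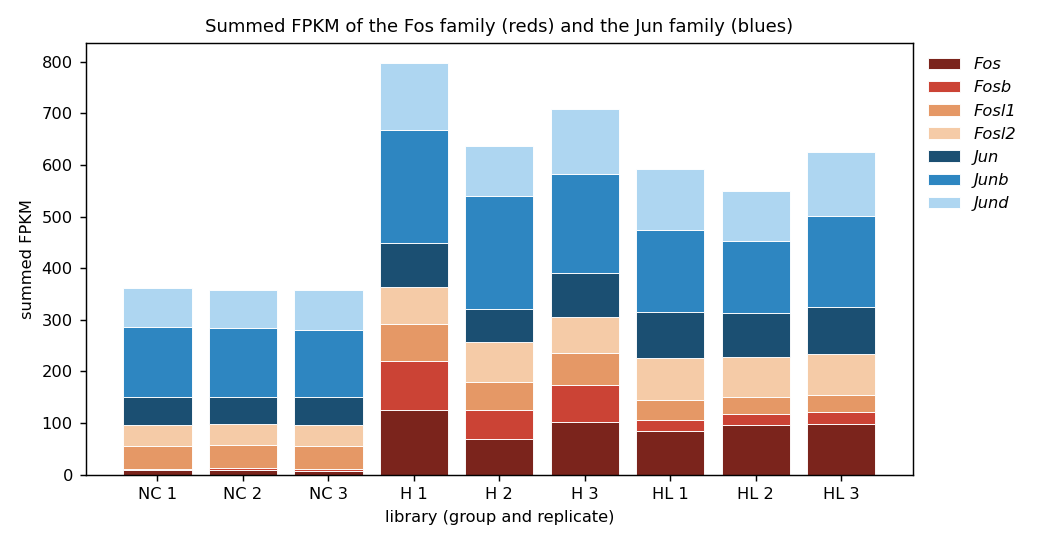
Summed FPKM (y axis) of the 4 Fos family genes (reds) and the 3 Jun family genes (blues) stacked for each of the 9 libraries (x axis). The column heights are 358 to 361 FPKM for NC, 637 to 797 for H and 550 to 624 for HL, and the Fosb band is widest in H.

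Ratios of members within a library do not depend on the library's scaling, and 9 such ratios were computed. Fos over Fosb was 2.32, 2.89 and 2.59 in NC, 1.35, 1.22 and 1.44 in H, and 4.04, 4.83 and 4.51 in HL. The 3 groups did not overlap, so that the Fos and Fosb mRNAs were nearest to each other in H and furthest apart in HL. In HL against H the two-sided exact permutation test gave p = 0.1 (adjusted p = 0.1125 over the 9 ratios), and 0.1 is the smallest p that 3 libraries against 3 can give. Of the 9 ratios, 8 did not overlap between HL and H, and the exception was Fos over Fosl2, at 1.38 ± 0.455 in H and 1.20 ± 0.127 in HL (exact permutation p = 0.8). Fosl1 over Fosl2 was 1.08 ± 0.0067 in NC, 0.87 ± 0.162 in H and 0.453 ± 0.0197 in HL. Jun over Junb was 0.403 ± 0.00496 in NC, 0.374 ± 0.0803 in H and 0.562 ± 0.0482 in HL.

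Other bZIP genes whose proteins pair with AP-1 subunits included 8 tested genes. In H against NC 4 were called higher and 0 lower, where 10.3% and 5.75% of all genes were called. The median log2 fold change was 0.59 where that of all genes was -0.042. By the limma adjusted p alone 4 were higher and 1 lower (27.1% and 33% of all genes). The lower gene, Jdp2, was at 36.3 ± 1.57, 23.7 ± 1.56 and 31.5 ± 4.26 FPKM in NC, H and HL (log2 fold change -0.61 in H against NC, adjusted p = 0.000482). Mafk, a small Maf like Maff, had 11.2 ± 0.463 FPKM in NC, rose to 38.7 ± 6.78 in H (log2 fold change 1.77, limma adjusted p = 1.51e-06) and fell to 14.6 ± 0.538 with liraglutide (-1.39, adjusted p = 1.83e-05). Mafg, the remaining small Maf, was at 29.4 ± 0.606, 61.4 ± 7.51 and 36.7 ± 1.63 FPKM in the 3 groups, and its log2 fold change was 1.05 in H against NC (adjusted p = 6.89e-06) and -0.73 in HL against H (adjusted p = 0.000137). All 3 small Maf genes thus had their highest mean in H. The large Maf genes Maf (1.67, adjusted p = 4.13e-05) and Mafa (1.15, adjusted p = 0.00021) also rose in H from means under 2 FPKM. Creb5, an ATF/CREB family member, was the 1 gene of the list called higher in HL against H. It had 4.87 ± 0.975 FPKM in H and 10.1 ± 0.678 in HL (1.05 on the log2 scale, limma adjusted p = 0.000584).

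Kinases upstream of AP-1, the enzymes that phosphorylate Fos, Jun or their activators, were mostly not called. Of 21 tested genes, 1 was called higher and 1 lower in H against NC, where 10.3% and 5.75% of all genes were called. In HL against H 0 were called, where 3.55% of all genes were called higher and 5.83% lower. By the limma adjusted p alone, 4 were higher and 6 lower in H against NC (27.1% and 33% of all genes). In HL against H 7 were higher and 4 lower (26.7% and 21.7% of all genes). The median log2 fold changes were -0.062 and -0.012. Rps6ka1, encoding the kinase RSK1, rose in H to 2.49 ± 0.539 FPKM over 0.80 ± 0.101 in NC (log2 fold change 1.51, limma adjusted p = 7.34e-05). Its highest NC value was 0.91 FPKM, so it passed the filter only through H and HL. Mapk11, encoding p38 beta, fell in H to 4.51 ± 0.709 FPKM, under 10.8 ± 0.466 in NC (log2 fold change -1.26, adjusted p = 1.12e-05). Map2k3, which activates p38, was at 76.0 ± 0.347, 80.6 ± 6.64 and 48.2 ± 1.65 FPKM in NC, H and HL, a log2 fold change of -0.74 in HL against H (limma adjusted p = 2.77e-05). Kinase activity was not measured.

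Of 15 tested factors that act on the Fos and Jun promoters, 1 was called higher and 0 lower in H against NC, and 1 each way in HL against H. Of all genes 10.3% were called higher and 5.75% lower in H against NC, and 3.55% and 5.83% in HL against H. By the limma adjusted p alone, 6 factors were higher and 0 lower in H against NC (27.1% and 33% of all genes). In HL against H 4 were higher and 6 lower (26.7% and 21.7% of all genes). Crem, whose gene also encodes the cAMP-induced repressor ICER, had 26.3 ± 1.61 FPKM in NC, rose to 63.0 ± 8.68 in H (log2 fold change 1.25, limma adjusted p = 4.84e-06) and fell to 19.2 ± 0.311 with liraglutide (-1.70, adjusted p = 3.17e-06). Mef2c, a muscle factor that binds the Jun promoter, rose in HL from a level near the filter, 0.563 ± 0.267 FPKM in H, to 2.08 ± 0.435 (log2 fold change 1.80, limma adjusted p = 0.00302). The medians of this list were 0.20 and -0.081.

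Of 10 tested genes that act on the turnover of Fos and Jun mRNA or protein, 2 were called higher and 0 lower in H against NC. Of all genes 10.3% and 5.75% were called there. In HL against H 0 were called, where 3.55% of all genes were called higher and 5.83% lower. By the limma adjusted p alone, 4 were higher and 3 lower in H against NC (27.1% and 33% of all genes). In HL against H 0 were higher and 2 lower (26.7% and 21.7% of all genes). Zfp36, the tristetraprolin that binds AU-rich elements and shortens the life of such mRNAs, had 8.68 ± 0.609 FPKM in NC, rose to 43.0 ± 7.39 in H (log2 fold change 2.29, adjusted p = 4.41e-07) and was at 38.6 ± 1.36 in HL. Trib1, a pseudokinase that brings substrates to the COP1 ligase, likewise had 9.41 ± 0.314 FPKM in NC, rose to 35.2 ± 5.81 in H (log2 fold change 1.88, adjusted p = 7.48e-07) and was at 33.0 ± 0.456 in HL. Zfp36l2, a relative of Zfp36, was at 67.9 ± 0.975, 68.5 ± 4.17 and 70.7 ± 4.69 FPKM, and Cop1 itself at 51.6 ± 3.04, 63.1 ± 8.73 and 51.3 ± 3.57. The median log2 fold changes of the list were 0.11 in H against NC and -0.077 in HL against H.

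The AU-rich nonamer TTATTTATT, the kind of site that tristetraprolin is known to bind, was in the 3′ UTR of 3 of the 9 members and of 8.29% of 11783 tested genes in GENCODE M21, or 9.21% of those whose 3′ UTR lay within the members' range of lengths. 1 site of each is shown with its flanks, capitals for the nonamer, and Maff holds 2.
Fos: ttttcaatTTATTTATTaagatgga
Fosl2: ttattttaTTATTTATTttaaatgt
Maff: ccacactcTTATTTATTgcacgaat
The pentamer ATTTA occurred at a median of 2.53 per kilobase in the members and 1.34 in all these genes. In the genes within the members' range of lengths that median was 1.51. Fosb held 1 pentamer in 2302 bases and no nonamer, and Fos 4 in 815 bases.

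Of 25 tested genes described as AP-1 targets, H against NC had 8 called higher and 3 lower (10.3% and 5.75% of all genes). HL against H had 1 higher and 8 lower (3.55% and 5.83% of all genes). By the limma adjusted p alone, 15 were higher and 4 lower in H against NC (27.1% and 33% of all genes). In HL against H 3 were higher and 13 lower (26.7% and 21.7% of all genes). The medians were 0.55 and -0.40 where all genes had -0.042 and 0.040. The study had picked Ptgs2, Ccl2 and Hmox1 of this list from these libraries, so the list is not independent evidence of its direction. Mmp12, a metalloelastase, had 0.156 ± 0.135 FPKM in NC, rose to 2.78 ± 0.946 in H (log2 fold change 3.57, limma adjusted p = 4.56e-05) and was at 4.24 ± 0.854 in HL. Its highest NC value was 0.306 FPKM, so it passed the filter only through H and HL. Ptgs2, the inducible cyclooxygenase, had 81.7 ± 2.49 FPKM in NC, rose to 401 ± 48.2 in H (log2 fold change 2.29, adjusted p = 1.87e-07) and fell to 59.1 ± 4.92 with liraglutide (-2.75, adjusted p = 2.36e-07). Hmox1, heme oxygenase, had 90.9 ± 0.564 FPKM in NC, rose to 323 ± 46.1 in H (1.82, adjusted p = 3.93e-07) and fell to 51.5 ± 1.49 with liraglutide (-2.64, adjusted p = 2.26e-07). In HL Ptgs2 and Hmox1 lay under their NC means, and Mmp12 lay above its own. Of the 25 targets, 3 were called higher and 2 lower in HL against NC (6.3% and 2.41% of all genes). The median there was -0.043 where that of all genes was -0.038.

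**Figure D4:**
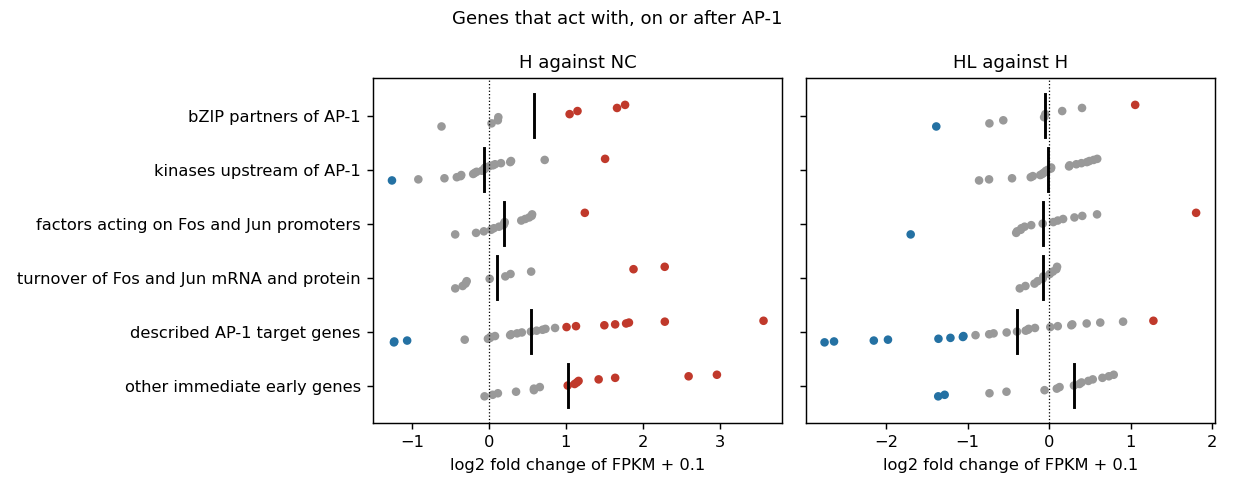
Log2 fold change of FPKM + 0.1 (x axes) in H against NC (left) and HL against H (right) for the tested genes of 6 lists (rows), 1 point per gene, red for called higher, blue for called lower and grey for not called, and black bars for list medians. The medians of the target list lie at 0.55 and -0.40, and those of the other immediate early genes at 1.03 and 0.30.

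Of 15 other tested immediate early genes, H against NC had 8 called higher and 0 lower (10.3% and 5.75% of all genes). HL against H had 0 higher and 2 lower (3.55% and 5.83% of all genes). By the limma adjusted p alone, 11 were higher and 0 lower in H against NC (27.1% and 33% of all genes). In HL against H 6 were higher and 4 lower (26.7% and 21.7% of all genes). The medians were 1.03 and 0.30. Klf2, a zinc finger factor, had 3.23 ± 0.144 FPKM in NC, rose to 26.5 ± 7.42 in H (log2 fold change 2.96, limma adjusted p = 1.86e-06) and was at 15.6 ± 2.42 in HL. Klf4, its relative, had 8.18 ± 0.459 FPKM in NC, rose to 50.6 ± 10.3 in H (2.60, adjusted p = 4.11e-07) and fell to 19.4 ± 0.505 with liraglutide (-1.36, adjusted p = 4.13e-05). Btg2, an antiproliferative gene, had 12.1 ± 0.293 FPKM in NC, rose to 38.0 ± 1.79 in H (1.64, adjusted p = 1.12e-07) and was at 63.0 ± 1.06 in HL. Ier3 fell from 447 ± 121 FPKM in H to 179 ± 3.14 in HL (-1.28, adjusted p = 0.000225).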

How the data were processed

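mRNA of C2C12 cells was sequenced on an Illumina HiSeq instrument, 3 libraries each of the NC, H and HL groups. The FPKM values used here, 1 per gene and library, were deposited by the authors. Their processing notes name HISAT2 2.1.0, StringTie 1.3.3b and mm39, while other sources differ in genome and quantifier, so no gene coordinates were taken from the files. As these are no counts, count models were not used.

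Values were transformed to log2(FPKM + 0.1), which understates the change of genes near 0, and tested with limma 3.58.1 (R 4.3.3, trend and robust options, statmod 1.5.0) in 1 fit of 9 libraries with 6 residual degrees of freedom. The filter kept 13674 genes that reached an FPKM of 1 in 3 or more libraries. Benjamini-Hochberg adjustment ran over all of them, and a call needed both an adjusted p under 0.05 and a log2 fold change over 1 in size. The fit was tested on simulated data. The members and lists were chosen with earlier results of these data known. The text names all members, up to 3 called genes per list with the largest change in H against NC and up to 2 in HL against H, or the 2 of highest mean FPKM where none was called. An item that this rule takes is not reported here. Mafg, Jdp2, several marker genes and the genes that overlap a member fall outside this rule and were named after their values were seen.

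Depth was estimated from 4967 genes with 1 transcript of at least 2000 bases, with 250 bases taken off the length, where at least 99.5% of low values lay no further than 0.1 from whole reads. Promoters came from RefSeq (GRCm38.p6) and 3′ UTRs from GENCODE M21. Alternatives were other pseudocounts, filters, scalings and fits, and each library left out in turn. Tables used pandas 2.3.3 and SciPy 1.17.1 (Python 3.11.15), and plots matplotlib 3.10.9.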

Additional observations from a re-analysis of the deposited data

How the results depend on the processing

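Of 513 log2 fold changes of members, 27 under 19 alternatives each, 501 kept their direction and their joint call on adjusted p and fold, 7 passed both thresholds only under the alternative and 5 turned sign. By the adjusted p alone 24 lost it (7 each for Fosl1, Junb and Maff in HL against NC, 3 for Atf3 in HL against H) and 1 gained it (Fosl2 in HL against H). The sign turned for Fos in HL against H, to 0.16 without H replicate 1, 0.011 without H replicate 3 and 0.03 without HL replicate 1, within a range of -0.28 to 0.16 over the libraries left out, and for Jund, to 0.017 without H replicate 1 and 0.041 without HL replicate 2, within -0.19 to 0.041. After rescaling to TPM 5 members were called higher in H against NC, and Fosl2 in HL against NC reached 1.03. With the adjusted p alone, members called higher and lower were 9 and 0 in H against NC, 1 and 4 in HL against H, and 8 and 1 in HL against NC, by the construction of that rule, and genes called higher and lower were 3711 and 4513, 3652 and 2967, and 2957 and 3717. When low values were kept, 2711 genes were higher in H against NC, 1606 lower in HL against H and 622 lower in HL against NC. When a mean FPKM of 5 was required, 517 genes were higher in H against NC, 255 higher and 270 lower in HL against H, and 306 higher and 150 lower in HL against NC. With a pseudocount of 1, 256 were higher in HL against H, and 446 higher and 198 lower in HL against NC. The cause was not tested.

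Leaving out each library in turn, 3 to 4 members were called higher in H against NC. With the replicate number as a replicate block, which ended the adjusted p of Junb in HL against NC (0.0579), 3 members were higher in H against NC, 1 lower in HL against H and 3 higher in HL against NC, with 1402 and 794, 486 and 802, and 848 and 332 genes higher and lower. Deviations of same-numbered libraries correlated at -0.04 to 0.09 and those of differently numbered libraries at -0.07 to 0.06. Between NC and H the same-numbered pairs (0.0456 to 0.0911) all lay above the others (-0.0705 to 0.0109). In pairs with HL the ranges overlapped. As all these values were small, the numbers were not taken to pair the samples. With only the bases before the start, 17.8% of promoters held TGACG, 6.75% TGANTCA, 1.55% TGACGTCA, 2.93% TGACATCA, 1.47% the CArG box and 4.31% the tonicity element. In an alternative added after seeing the data, 80.7%, 91.1% and 99.1% of low values were whole reads with 0, 100 and 350 bases taken off.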

Other observations

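For each member the 2 genes of nearest pattern were sought among 9828 tested genes with a symbol and a mean FPKM of at least 5, by the root mean square difference of log2(FPKM + 0.1) over the 9 libraries, each gene centred on its NC mean. The distances were largest for Fos and Fosb. The nearest to Fos were Hist1h1c, a linker histone, at a difference of 0.505, and Atp13a4, also at 0.505, and the nearest to Fosb were Atp1b1, a subunit of the sodium pump, at 0.392 and Sprr1a at 0.425. Atf3 had Gm43366 at 0.136 and AC167363.2 at 0.195. The other 6 members, whose changes were small, each had companions at under 0.1. These were Psmd11 (0.0316) and Gsto1 (0.0495) for Fosl1, Bach1 (0.0541) and Sft2d2 (0.0731) for Fosl2, Irgq (0.0728) and Card19 (0.0848) for Jun, 1600012H06Rik (0.0768) and Spg21 (0.078) for Junb, Card19 (0.0704) and Atp6v1c1 (0.0715) for Jund, and Pttg1ip (0.0511) and Zfand3 (0.0613) for Maff. None of the nearest genes was itself a member.

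Of 4 markers of differentiated muscle, the summed FPKM ran from 4.62 to 5.85 for NC, 3.81 to 5.34 for H and 12.8 to 14.5 for HL. Of these markers 2 were tested, Acta1 and Myog, and both were called higher in HL against H (3.55% of all genes). Myog passed the filter only through the HL libraries, with at most 0.965 FPKM in NC and 0.723 in H. Its part in that count therefore depends on the group where it was high. In H against NC 0 of 2 were called, where 10.3% of all genes were called higher and 5.75% lower (0 higher and 0 lower by the limma adjusted p alone). Of the 7 myoblast markers 6 were tested. In H against NC 0 rose and 1 fell, where 10.3% of all genes were called higher and 5.75% lower. By the limma adjusted p alone 2 were higher and 4 lower there (27.1% and 33% of all genes). The median log2 fold change was -0.33 where that of all genes was -0.042. In HL against H 1 rose and 0 fell (3.55% and 5.83% of all genes). By the adjusted p alone 5 were higher and 0 lower (26.7% and 21.7%), and the median was 0.85 where that of all genes was 0.040. The part of these changes in the AP-1 values was not tested.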
